A study of Brassica napus with 48 samples.

Results

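The transcripts described here were low in small and middle flower buds of fertile oilseed rape (Brassica napus) and high in large ones. Members were probe sets whose mean log2(signal + 113) in large buds exceeded that in middle buds and that in small buds by at least 1, in fertile J10 and in fertile J03 alike, with a mean signal in fertile large buds of at least 500. The rule used no sterile sample. It found 65 of 22746 probe sets, or 0.286%, after leaving out 64 array controls. Fertile values chose the members, so they are given as a description and were not tested.

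The array was the Affymetrix ATH1 chip, designed for Arabidopsis thaliana, and each gene name stands for the Arabidopsis gene of a probe set that bound rapeseed RNA. The deposited values are signal intensities. Of the members, 16 are paired with 1 gene, 4 with several genes and 45 are unnamed in the annotation used here. Signals are therefore set against each other within a probe set, not between probe sets, and sums over gene lists are descriptions only.

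The 48 arrays covered 12 groups, made of 4 plant types at 3 bud sizes. In J10, a line homozygous for dominant genic male sterility, sterile plants (J10A) had the genotype MsMsrfrf and fertile plants (J10B) MsMsRfrf. In J03, the heterozygous line, sterile plants (J03A) were Msmsrfrf and fertile plants (J03B) msmsrfrf. Sterile and fertile plants thus differed at Rf in J10 and at Ms in J03, and both plant types of J10 carried MsMs. Buds under 1 mm (small), of 1 to 3 mm (middle) and over 3 mm (large) stood for the tetrad, uninucleate and trinucleate stages of pollen development. They were picked by hand from field-grown plants, 2 to 4 per line, and each held stamens and pistils. Each group had 2 replicates with 2 hybridisations each, on the reading of the titles used here. Below, a pair of values gives replicate 1 and then replicate 2, each the mean of its hybridisations, and every mean ± SD has n = 2. Which plants went into a replicate is not stated, and a p-value here reflects the spread between the 2 samples of a group, which may be technical. That spread was pooled over all 12 groups, the fertile ones included. In whole buds, fewer cells of a type and less RNA per cell cannot be told apart.

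Between the tetrad and the trinucleate stage, microspores leave the tetrad, divide and fill with the RNA, protein and reserves that the pollen tube will use. Genes known from Arabidopsis for this late phase encode enzymes that loosen pectin in the tube wall, actins of the pollen cytoskeleton and proteins that protect drying cells. The tapetum, which feeds the microspores and builds the pollen wall, is most active before that and then degenerates.

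In fertile J10 the median member had a log2 signal of 8.37 ± 0.01 in small buds, 8.51 ± 0.03 in middle buds and 10.51 ± 0.30 in large buds. The corresponding medians in fertile J03 were 8.52 ± 0.00, 9.03 ± 0.22 and 10.90 ± 0.17. The median difference between large and middle buds was 1.63 in J10 and 1.54 in J03. Small and middle buds of fertile plants, which the rule did not compare, differed by a median of 0.07 in J10 and 0.49 in J03. The middle bud was higher than the small one by at least 1 in 4 members in J10 and in 15 in J03. Over all 14021 tested probe sets, that difference was reached by 1.98% in J10 and 2.66% in J03. More members were thus above their small-bud level by the middle stage in J03 than in J10, a contrast that was not tested.

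**Figure D1:**
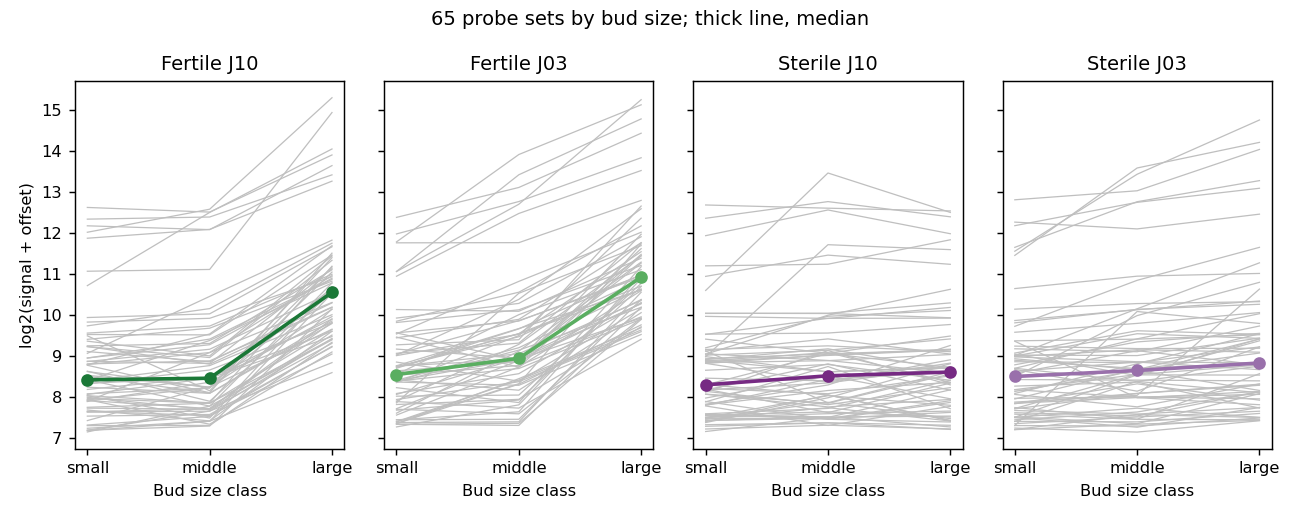
Log2(signal + 113) of the 65 members (vertical axis) in small, middle and large buds (horizontal axis) of the 4 plant types, with each grey line a probe set averaged over 2 replicates and the thick line their median. The median climbs in large buds of both fertile types, by the choice of members, stays level in sterile J10 and climbs less in sterile J03.

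Mean fertile large signals ran from 504.0 to 38313 with a median of 1647. Both large replicates lay above all small and middle replicates in 62 of 65 members in J10 and in all 65 in J03. The same fertile arrays chose the members, so the rule favours these counts, and the share over all probe sets was not counted. The group with the highest mean was fertile J03 large in 50 members, fertile J10 large in 14 and sterile J03 large in 1. Large fertile buds of J10 had lower levels than those of J03 in 52 members, a share not counted over all probe sets. The median difference was -0.31 on the log2 scale (lowest -2.47, highest 0.62), against -0.01 over all tested probe sets. The difference was -1 or below in 10 members and 1 or above in 0. The J10 large replicates were unequal in the members, with replicate 1 higher in 53 of them. The median difference was 0.47 over all 65, against -0.02 over all tested probe sets. On the same arrays the log2 ratio of 3′ to 5′ control probe sets (actin, GAPDH and ubiquitin transcripts), a sign of RNA integrity or labelling, was 0.90 in replicate 1 and 1.48 in replicate 2. Its part in the J10 level was not tested. Without replicate 1 the rule found 49 probe sets, and without replicate 2 it found 81.

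A pair of members encodes enzymes of pectin breakdown. AT3G07840, of the polygalacturonase family, kept the widest margin of the 1-gene members, since even its smallest fertile difference was 3.05. Its signal in fertile J10 was 99.8 and 211 in small buds, 91.4 and 152 in middle buds, and 3159 and 1572 in large buds. In fertile J03 it was 82.3 and 115, then 138 and 790, then 4561 and 3368. In sterile J10 its 6 replicates lay between 39.8 and 137, and in sterile J03 between 82.4 and 160. Every sterile replicate therefore lay below every fertile large replicate, and the fertile large mean was 19.4 times the sterile one in J10 and 34.5 times in J03. AT1G11920, of the pectate lyase family, reached 1027 and 1013 in large buds of fertile J10, from 290.2 and 119 in middle ones. Fertile J03 large buds had 557 and 838, after middle buds at 88.5 and 468. In sterile J10 large buds it had 119 and 56.3. Sterile J03 large buds were split, with 362 in replicate 1 and 53.2 in replicate 2.

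Of the 20 pectin genes listed, 7 are paired with a probe set, 5 were tested and 1, AT3G07840, is a member. AT5G48140, another gene of that list, had means of 1652 ± 424 in fertile J10 large buds and 1361 ± 756 in fertile J03 large buds. It missed the rule because large exceeded middle by 0.95 in J03. No tested pectin gene passed from middle to large buds of either sterile line, as limma called 0 of 5 in each and 0 had an unadjusted p under 0.05.

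Late embryogenesis abundant (LEA) proteins are known to protect proteins and membranes in drying seeds and pollen. AT3G02480, of this family, had 22.0 and 43.8 in small, 53.6 and 61.6 in middle and 1623 and 1158 in large buds of fertile J10. In fertile J03 it had 285 and 57.4, then 87.3 and 239, then 1675 and 1612. Sterile J10 stayed between 19.8 and 78.6 at all sizes, with 36.9 and 36.6 in large buds. Sterile J03 large buds had 380.2 and 182, above both middle replicates (59.4 and 67.7) and below both fertile large ones. That difference from middle to large buds, 1.02 with an SE of 0.40, did not pass (adjusted p = 0.451), nor did its difference between the sterile lines (-1.09, SE 0.57, adjusted p = 0.868).

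AT5G53820, also of the LEA family, went from 29.4 and 29.2 in small buds of fertile J10 to 2275 and 1195 in large ones. In fertile J03 the small buds had 108 and 60.4, the middle buds 423 and 469, and the large buds 3301 and 1745. The highest of the 12 sterile replicates was 174. AT1G52680, annotated as related to LEA proteins, showed a larger step in J03 than in J10. Its large buds had 742 and 241 in fertile J10 and 1329 and 1471 in fertile J03, and its sterile replicates ran from 36.4 to 152. Of 17 listed LEA and desiccation genes, 6 were tested and 2 are members. AT2G03740 and AT2G03850, of the same list, were already high in middle buds of fertile plants, at means of 6124 ± 794 and 1179 ± 134 in J10. AT2G03740 rose further in fertile J10, to 13728 ± 1857 in large buds (large minus middle 1.15), and missed the rule in J03 (-0.04). By limma both genes rose from small to large buds of sterile J03, by 4.06 (adjusted p = 3.2e-08) and 2.20 (adjusted p = 0.00146). The other 4 tested genes of the list, members included, did not pass. AT2G03740 also rose from small to large buds of sterile J10, by 2.65 (adjusted p = 7.32e-05), and from middle to large ones by 1.85 (adjusted p = 0.0109). The latter step was -0.79 (adjusted p = 0.45) in sterile J03, and the line difference was called (2.64, adjusted p = 0.0236).

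ACT12, an actin known from Arabidopsis pollen, was the only gene of the late-pollen list among the members (48 genes listed, 15 named, 8 tested). Fertile J10 had 168 and 308 in small, 31.0 and 224 in middle and 785 and 396 in large buds. Fertile J03 had 119 and 208, then 356 and 197, then 1075 and 1243. Sterile large buds had 105 and 385 in J10 and 122 and 195 in J03. The sterile J10 replicate at 385 lay just under the lower fertile J10 replicate at 396, so the gap in J10 was narrow in those samples. The summed signal of the 15 named genes of the list in large buds was 5584 and 5589 in fertile J10 and 7996 and 6916 in fertile J03. It was 3139 and 3983 in sterile J10 and 3833 and 3626 in sterile J03. The sum includes ACT12, which its fertile large values made a member, and it adds signals of different probe sets, so a few bright genes can set it. It does not show a difference shared by the listed genes. Several pollen genes on the array did not share the course: AGL65, a MADS-box factor of pollen, had 575 in fertile J10 large buds against 508 in small ones. TET11, a tetraspanin, was at 1219 in middle and 1208 in large buds of fertile J03, but at 669 and 1389 in fertile J10. Among the others of the list, AT1G29140 and AT5G45880 rose in fertile J03 and fell short of the rule in J10. AT1G29140 had 379 in middle and 1515 in large buds of fertile J03, and 367 and 730 in fertile J10. AT5G45880 had 87.6 and 1001 ± 587 in fertile J03, and 104 and 158 in fertile J10.

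Proteases form another small group. AT4G04460, an aspartyl protease, had 168 and 149 in small, 358 and 77.7 in middle, and 2982 and 2265 in large buds of fertile J10. Fertile J03 had 196 and 73.0, 403 and 647, and 2776 and 2597. Sterile large buds were at 279 and 279 in J10 and at 470.4 and 388 in J03, and the highest sterile replicate was that at 470.4. Its sterile difference between large and small buds was 0.88 (SE 0.38) in J10 and 1.04 (SE 0.38) in J03, with adjusted p of 0.378 and 0.202.

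AT4G16190, a papain-type cysteine protease, had the widest gap between large buds of the sterile lines among the 1-gene members. Fertile J10 had 5121 and 3212 in small, 5130 and 7123 in middle and 42097 and 38928 in large buds. Fertile J03 had 3298 and 3570.2, 12480.0 and 19053, and 32320.1 and 39906. In sterile J10 the values were 2627 and 1925, 2510 and 2137, and 3177 and 3986. In sterile J03 they were 2498 and 2933, 12884 and 11663, and 18935 and 19003. Both middle and both large replicates of sterile J03 thus lay above every sterile J10 replicate.

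The other 8 genes have varied annotations. AT1G63060, a gene of unknown function, had 453 and 629 in large buds of fertile J10 and 1147 and 1304 in those of fertile J03, and the highest of its other replicates was at 137. AT2G19980, of the CAP family that includes pathogenesis-related protein PR-1, had 293 and 258 against 1026 and 685 in the same groups, and 137 was its highest sterile value. AT3G27200, of the cupredoxin family of copper-binding proteins, was higher in fertile J10 large buds (2376 and 1305) than in any sterile replicate (highest 960.4). AT2G30630, of the P-loop nucleoside triphosphate hydrolase family, had 712 and 455 in J10 and 770 and 692 in J03, with sterile replicates up to 359. AT4G27435, of a family of unknown function, had 2106 and 1783 in J10 and 2357 and 2183 in J03, and 1036 was the highest of its sterile replicates. These genes had separated sterile and fertile large buds in both lines.

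AT5G03380, of the heavy-metal-associated domain family, and WRKY42, a WRKY transcription factor, were less clear. AT5G03380 had 302 and 568 in fertile J10 large buds and 167 and 615 in sterile J10 large buds, so the replicates overlapped. WRKY42 had 446 and 801 in fertile J10 large buds and 81.2 and 584 in the sterile ones. AT1G16310, of the cation efflux family of metal transporters, had 407 and 592 in large buds of fertile J10 and 748 and 685 in those of fertile J03. Its sterile large values were 67.1 and 53.4 in J10 and 355 and 288 in J03, on either side of the sterile middle buds (154 and 151 in J10, 178 and 273 in J03).

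**Figure D2:**
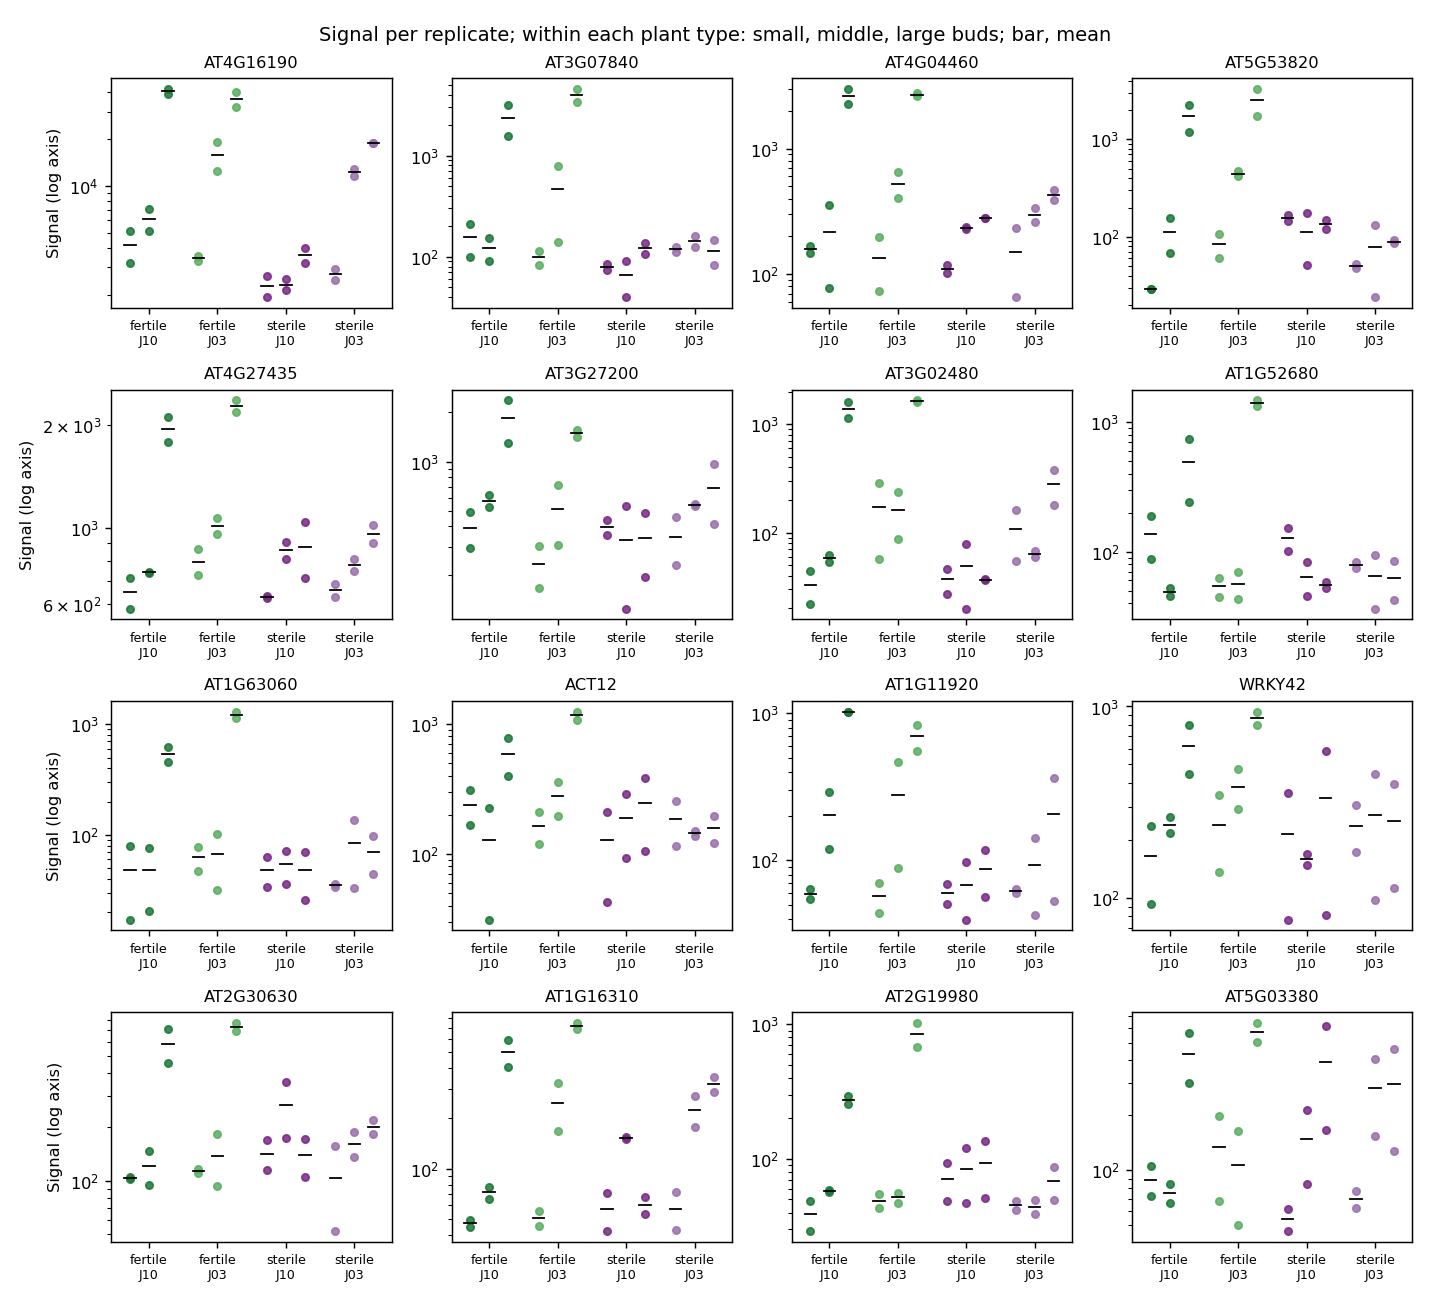
Signal (log axis) of the 16 members paired with 1 gene, by plant type and, within each, small, middle and large buds from left to right; each point is a replicate and each bar the mean of 2. The fertile large points stand highest in most panels, AT4G16190 climbs also in sterile J03, and AT5G03380 and WRKY42 overlap between sterile and fertile J10.

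Some members lay close to the thresholds of the rule. Inside the limit of 1, the smallest differences were 1.03 for WRKY42, 1.09 for AT4G27435 and 1.09 for AT1G52680. Outside it came SGP1 at 0.99, AT4G17830 at 0.97 and AT1G26610 at 0.97. In signal, AT5G03380 (504.0), AT2G19980 (566) and AT1G16310 (608) were just inside and AT2G33690 (488) just outside. Within 0.1 of the limit on the log2 scale lay 9 probe sets above it and 10 below it. Of 68 probe sets with both differences, 3 fell under the signal floor.

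In sterile buds, whose values the rule did not use, the members were close to flat in J10. The median member had 8.33 ± 0.11 in small, 8.45 ± 0.24 in middle and 8.44 ± 0.30 in large buds. The median difference between large and middle buds was 0.08, against 0.01 over all tested probe sets. It lay within 1 of 0 in 64 of 65 members and reached 1 in the remaining member, the unnamed probe set 262454_at (1.02). Over all tested probe sets 0.913% reached 1. All 65 members passed the filter on low signal, which each could do through its fertile large group. The limma test called 0 of 65 higher in large than in middle buds, where 0.0214% of all tested probe sets were called, and 0 lower, where 0.0499% were. At an unadjusted p under 0.05 there were 4 members, and 904 of the 14021 tested probe sets. The 95% interval of the difference stayed below 1 in 41 members, so for these a difference of 1 lay outside it. The median SE was 0.40 (range 0.20 to 0.62).

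Between small and large buds of sterile J10, the difference reached 1 in 5 members, and in 1.65% of all tested probe sets. By limma, 2 members rose (0.464% of all tested probe sets were called higher) and 0 fell (0.428%). They were 255364_s_at, paired with several genes, by 2.65 (SE 0.48, adjusted p = 0.00387) and the unnamed 258003_at by 1.59 (SE 0.28, adjusted p = 0.00307). Unnamed probe sets and those with several genes fall outside the rule for names and were picked after their values were seen. For 255364_s_at the step fell between small buds (265 and 571) and middle buds (3631 and 2939), and large buds (3171 and 2829) were no higher. For 258003_at the values climbed from 375 and 462 through 683 and 1209 to 1321 and 1647. Between small and middle buds 255364_s_at and 252971_at were called higher (2 of 65, against 0.364%) and 0 lower (0.185%). Without replicate 1 of the small buds neither 255364_s_at (in either of its 2 calls) nor 258003_at nor 252971_at was called. Other single replicates also ended the large-bud calls and that of 252971_at.

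Sterile J03 members showed a partial climb. The median member had 8.35 ± 0.06 in small, 8.64 ± 0.16 in middle and 8.93 ± 0.01 in large buds. Large exceeded middle by a median of 0.18 and small by 0.36, against -0.01 over all tested probe sets in both cases. The difference from middle to large buds reached 1 in 5 members, and 1.12% of all tested probe sets reached it. From small to large buds it reached 1 in 15 members, and 2.13% of all tested probe sets did. In the median member the sterile difference between large and middle buds was 10.7% of the fertile one in J03 and 5.12% in J10.

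**Figure D3:**
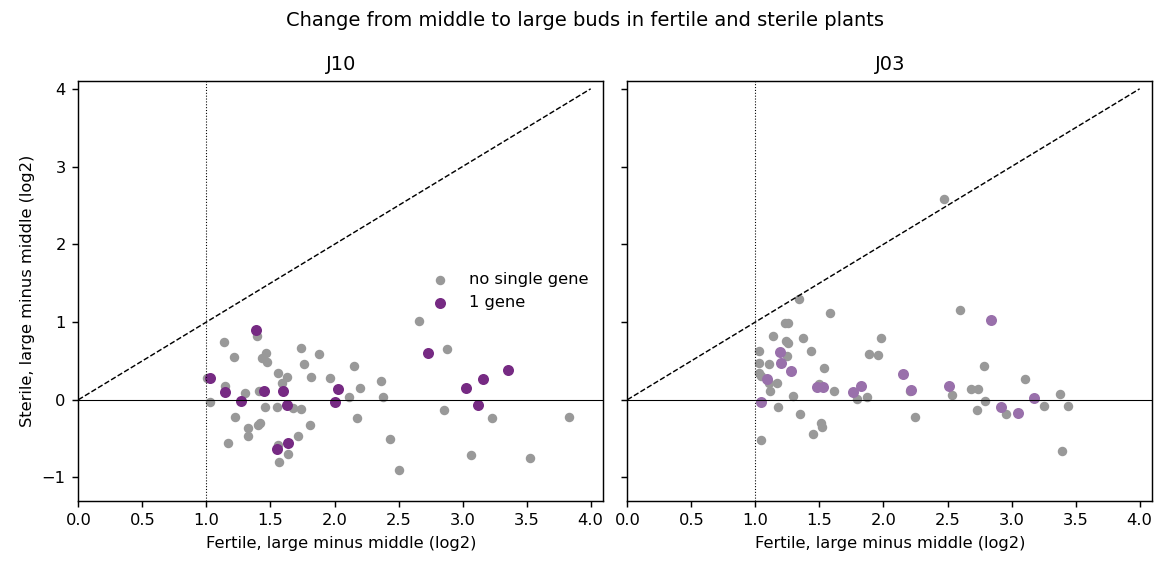
Difference between large and middle buds on the log2 scale in fertile plants (horizontal axis) and sterile plants (vertical axis) of J10 (left) and J03 (right), each point a member. Every point lies right of 1 by the rule, the dashed line marks equal differences, and in J03 5 points reach 1 on the sterile axis against 1 in J10.

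The limma test called 1 member higher in large than in middle buds of sterile J03 (0.185% of all tested probe sets) and 0 lower (0.285%). It was 262454_at, with 111 and 199 in middle buds and 1461 and 1504 in large ones (2.58, SE 0.49, adjusted p = 0.00831). This call was lost without any 1 of the 4 replicates compared and with the first hybridisations alone (largest adjusted p = 0.117). Its sterile J03 large buds lay close to the fertile J10 ones (1440 and 1367) and below the fertile J03 ones (3332 and 1665).

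From small to large buds of sterile J03, 9 members rose (0.977% of all tested probe sets) and 0 fell (0.963%). AT4G16190 was the named gene among them, higher by 2.74 (SE 0.24, adjusted p = 1.92e-07). Its step lay between small and middle buds, where the difference was 2.13 (adjusted p = 5.25e-06). The difference from middle to large buds was 0.61 (adjusted p = 0.472). The other called members were 255364_s_at (3.18), 262454_at (2.71), 265127_at (2.50), 251733_at (2.45), 263689_at (2.26), 258003_at (1.91), 264371_at (1.62) and 259102_at (1.58). The calls of 264371_at and 259102_at were lost without any 1 of the 4 replicates compared, and that of 262454_at without replicate 2 of the small buds.

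Between small and middle buds of sterile J03, 5 members rose (1.28% of all tested probe sets) and 0 fell (0.72%). They were AT4G16190, 265127_at, 251733_at, 255364_s_at and 258003_at, all of them called also from small to large buds. The calls of 251733_at, 255364_s_at and 258003_at were lost without any 1 of the 4 replicates compared. For 265127_at, small buds of sterile J03 had 36.5 and 55.7, middle buds 690.4 and 1370.0, and large buds 512 and 1159. Its course had thus ended by the middle stage, whereas in fertile J03 it went on from 1100.0 and 1707 to 2833 and 3643. For 251733_at the mean of sterile J03 large buds (1734 ± 651) was the highest of all 12 groups, with fertile J10 at 1729 ± 370 and fertile J03 at 1564 ± 21.3. This member does not bear out the description of a transcript particular to fertile buds.

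**Figure D4:**
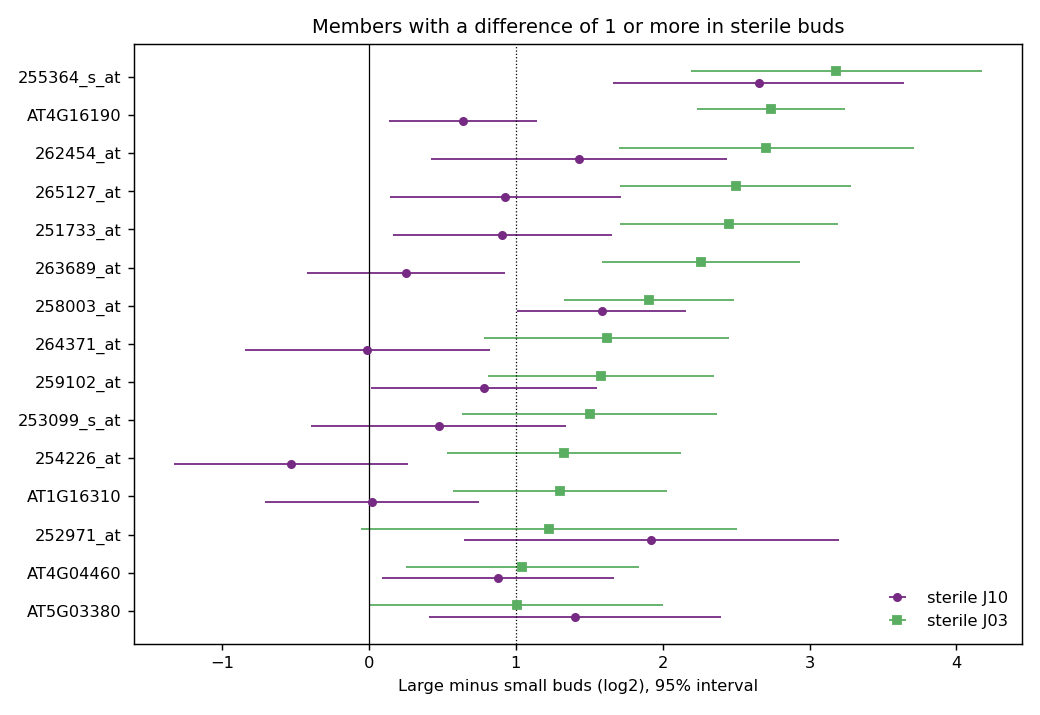
Difference between large and small buds of sterile J10 (circles) and sterile J03 (squares) on the log2 scale with 95% intervals from limma, for the 15 members that reached 1 in at least 1 line. All 15 reached 1 in J03 and 5 of them in J10, and the interval of AT4G16190 spans 2.23 to 3.24 in J03 and 0.14 to 1.15 in J10.

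The step from middle to large buds was compared between the sterile lines in 1 test. It called 0 of 65 members higher in J10 (0.0143% of all tested probe sets) and 0 lower (0.0%). There were 3 members whose unadjusted p was under 0.05, and 825 of the 14021 tested probe sets. The median difference of the steps was -0.15 with SEs from 0.28 to 0.88. That no member passed does not show that the steps of the lines were alike, and over all tested probe sets 2 were called. The corresponding difference for small to large buds was not tested.

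The level in large sterile buds was called different between the lines in 6 of 65 members. The median difference, J10 minus J03, was -0.20 (0.01 over all tested probe sets), with 0 called higher (0.991% of all tested probe sets) and 6 called lower (1.66%). AT4G16190 had a difference of -2.36 (SE 0.24, adjusted p = 3.59e-06), with means of 3582 ± 572 and 18969 ± 47.7. AT1G16310 had -1.29 (SE 0.35, adjusted p = 0.0484), a call kept in 5 of 13 alternatives and lost without any 1 of the 4 replicates compared. The other 4 were 255364_s_at (-3.15), 254226_at (-1.72), 265127_at (-1.71) and 263689_at (-1.50). Leaving out 1 replicate of the large sterile buds ended the calls of 254226_at (replicate 1 of either line), 265127_at (either J10 replicate or J03 replicate 2) and 263689_at (replicate 2 of either line). The log2 ratio of 3′ to 5′ controls was 1.94 ± 0.01 in sterile J10 large buds and 1.16 ± 0.24 in sterile J03 large buds. With this ratio as a covariate 1 of the 6 calls was left, that of AT4G16190, and the call counts over all probe sets fell from 372 to 64. The 5 members that lost the call kept their sign, at -1.66 (255364_s_at), -1.52 (AT1G16310), -1.41 (254226_at), -1.34 (265127_at) and -1.25 (263689_at), with adjusted p from 0.104 to 0.285. In the same comparison limma called 3 genes of the tapetal lists higher in J10. They were AT5G07230 by 1.55 (adjusted p = 0.00105), AT3G23770 by 3.01 (adjusted p = 0.0375) and AT1G62500 by 0.88 (adjusted p = 0.0394). These were 1 of 4 tested early tapetum genes (list median 0.36) and 2 of 7 tapetal wall genes (list median -0.04). Others had the other sign and did not pass: AT4G00040 (-1.36, adjusted p = 0.0572), SHT (-1.28, adjusted p = 0.0555), AT4G29250 (-0.62), EMS1 (-0.40) and ATA27 (-0.04). AT1G62500 was brightest in small buds of both sterile lines (means 12083 ± 344 in J10 and 8176 ± 716 in J03), so its values do not bear out its place in the list. The part of the listed tapetal genes in the members' difference was not tested. The lines can also differ in how well their RNA binds an Arabidopsis probe, which was not tested.

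Large sterile and large fertile buds are set side by side as a description, because the fertile arrays chose the members. The median difference, sterile minus fertile, was -1.70 in J10 and -1.84 in J03 on the log2 scale. The sterile level was lower by at least 1 in 57 members in J10 (2.95% of all tested probe sets) and 48 in J03 (1.6%). It was lower by at least 2 in 25 and 31, and by at least 3 in 6 and 13, shares not counted over all probe sets. The rule favours these counts. Both sterile replicates lay below both fertile ones in 62 of 65 members in J10 (20.0% of all tested probe sets) and in 60 in J03 (20.4%). The log2 ratio of 3′ to 5′ controls in large buds was 1.94 ± 0.01 in sterile and 1.19 ± 0.41 in fertile J10. In J03 it was 1.16 ± 0.24 and 1.01 ± 0.05. Its part in these differences was not tested. In small buds the median difference between sterile and fertile plants was -0.03 in J10 and -0.01 in J03. In middle buds it was 0.05 in J10 and -0.28 in J03. There the sterile level was lower by at least 1 in 3 J10 members (1.65% of all tested probe sets) and 7 in J03 (0.706%). Both sterile replicates of middle buds lay below both fertile ones in 9 J10 members (16.6%) and in 24 in J03 (19.4%). The gap was thus widest in large buds, where the rule had placed the fertile maximum, and was partly present in J03 middle buds.

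On the log2(signal + 113) scale the lowest differences were those of the unnamed probe sets 251590_at in J10 and 251258_at in J03. In large buds 251590_at had 39416 and 25167 in fertile J10 and 40343 and 38012 in fertile J03. Its sterile large buds had 2363 and 2263 in J10 and 3066 and 1246 in J03, 14.0 and 18.2 times lower in the mean. For 251258_at the sterile mean was 12.6 times lower in J10 and 31.9 times in J03. As a ratio of mean signals, which the offset does not shrink, the gap was widest for AT3G02480 in J10 (37.8 times) and for AT3G07840 in J03 (34.5 times), and the unnamed 245658_at had 30.4 and 34.3 times. At the other end, 255364_s_at was nearly level in J03, with 28876 and 27668 in fertile and 29708 and 25918 in sterile large buds. In J10 the same probe set had 33713 and 8499 in fertile and 3171 and 2829 in sterile large buds.

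**Figure D5:**
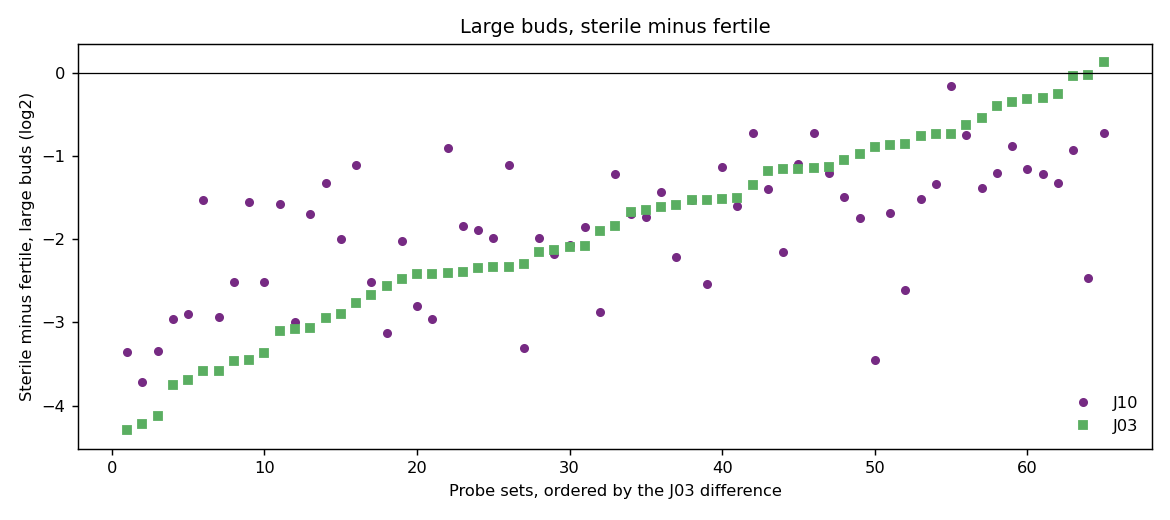
Sterile minus fertile level in large buds on the log2 scale (vertical axis) for the 65 members, ordered by the J03 value (horizontal axis), with circles for J10 and squares for J03. Values span -3.71 to -0.15 in J10 and -4.30 to 0.13 in J03, and the rightmost member, 251733_at, is at 0.13 in J03 and -0.72 in J10.

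The 50 members that stayed under 1 from small to large buds of both sterile lines had median sterile minus fertile differences of -1.78 in J10 and -2.31 in J03. They include AT3G07840, AT1G11920, AT3G02480, AT5G53820, AT1G52680, ACT12, AT1G63060, AT2G19980, AT3G27200, AT2G30630, AT4G27435 and WRKY42. The 10 that reached 1 in sterile J03 alone, with AT4G16190, AT4G04460 and AT1G16310 among them, had medians of -1.72 in J10 and -0.86 in J03. The 5 that reached it in both lines, with AT5G03380, had -1.20 and -0.39. These classes are cut at a value and carry no test.

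Lists of genes for the other tissues of a bud give the setting of these values. Of 19 tapetal wall genes, 7 are named and tested and 0 are members. From small to large buds, 3 of these 7 rose in sterile J10, and in sterile J03 4 rose and 1, AT1G62500, fell. SHT, a spermidine acyltransferase of the tapetum, rose by 2.23 in sterile J10 (adjusted p = 0.00113) and by 3.61 in sterile J03 (adjusted p = 8.11e-07). From middle to large buds 2 of the 7 fell in sterile J03 and 0 in sterile J10 (1 at an unadjusted p under 0.05). The summed signal of the 7 genes in large buds was 22776 and 26588 in fertile J10, 31344 and 27855 in sterile J10, 21585 and 32467 in fertile J03 and 10923 and 29126 in sterile J03. AT3G23770 alone had 16541 ± 3811 in sterile and 288 ± 38.7 in fertile J10 large buds. Without it, a choice made after seeing the data, the order in J10 turned, with sums of 22516 and 26273 in fertile and 12108 and 14009 in sterile large buds. In J03 the sums without it were 21022 and 30099 in fertile and 10631 and 18617 in sterile large buds. In each line the sterile mean was above the fertile one in 3 of the 7 genes and below it in 4.

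Of 13 early tapetum genes 6 are named and 4 were tested. From small to large buds 1 of the 4 rose in sterile J10 and 0 in sterile J03 (0 there at an unadjusted p under 0.05), and 1 fell from middle to large buds of sterile J03. None is a member. Of 24 jasmonate and anther-opening genes 4 are named and 2 tested. JMT, a jasmonate methyltransferase, rose from small to large buds by 2.23 in sterile J10 (adjusted p = 0.000949) and by 2.19 in sterile J03 (adjusted p = 0.00075). For AT5G05600, the other tested gene of that list, this difference did not pass (0.55 and 0.63, adjusted p = 0.733 and 0.586). AT5G05600 fell by 2.05 from small to middle buds of sterile J03 (adjusted p = 0.00672) and rose by 2.69 from middle to large ones (adjusted p = 0.00144). Of 9 photosynthesis genes 3 were tested, and RCA and PRK were lower in sterile J10 than in sterile J03 large buds, with differences of -1.32 and -1.18 (adjusted p = 0.00109 and 0.00642). For the remaining gene, PORB, the difference had the other sign and did not pass (0.59, adjusted p = 0.126). The summed signal of these 3 genes was 6790.3 and 6847 in sterile J10 and 11809 and 12119 in sterile J03. Late-pollen genes, pistil genes (8 listed, 3 tested), pollen coat genes (10 listed, 2 tested) and pollen transport and signalling genes (57 listed, 4 tested) had 0 calls by limma in the 8 comparisons. At an unadjusted p under 0.05 there were 1, 1, 2 and 1. The flavonoid list had 1 tested gene and 0 calls, with 0 at that unadjusted p, and of the floral identity and senescence lists 0 genes were tested. The part of these tissues in the members' values was not tested. Detection calls were not used, so a low signal of a listed gene does not show that it was expressed.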

How the data were processed

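Flower bud RNA was hybridised to Affymetrix ATH1 arrays, and the authors deposited signal intensities. The submitters' processing notes name MAS5 as the tool, and its version was not given in the sources used here. The deposited signals had a 2% trimmed mean of 500.0 on each of the 48 arrays, so they had been scaled, and array medians ran from 339 to 410.1. Signals became log2(signal + 113), 113 being near the median 25th percentile of the arrays. The offset shrinks changes of dim probe sets. A tech_rep array was taken as the second hybridisation of the biol_rep with its number, which 10 of 12 such arrays of J10 and 9 of 12 of J03 bore out by correlation. The 2 hybridisations were averaged, leaving 24 columns.

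A probe set was tested if its mean signal reached the array median in both replicates of at least 1 group, which kept 14021. The linear model of limma 3.58.1 (R 4.3.3) was fitted to all 12 groups with an intensity trend and 12 residual degrees of freedom. It gave 8 comparisons of sterile groups, with p-values adjusted by Benjamini-Hochberg over all tested probe sets and called under 0.05. On simulated data for the J10 sterile step from middle to large buds, 35 of 100 changes of 1 and 89 of 100 changes of 2 were recovered. There were 7 false calls among 14021 probe sets. The simulated replicates were independent and had 1 spread per probe set in all groups, whereas same-numbered J10 replicates tended to deviate together. These shares therefore describe the simulated setting only. The number of arrays limits the precision.

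The mean fertile large signal was taken over both lines. The members and the 13 gene lists (249 genes) were chosen with earlier results of these data known. Named genes were members paired with 1 gene: the 10 with the largest fertile difference, the 5 with the highest and the 5 with the lowest sterile difference, the 5 with the largest line difference, up to 4 per list and the 3 nearest each threshold. Alternatives were the offset, quantile normalization, the filter, the samples in the fit, the hybridisations, a covariate (the 3′ to 5′ ratio), a replicate block, left-out replicates and the limits of the rule. Detection calls, probe-level values and sequences were not used here. Figures were drawn with matplotlib 3.10.9 (Python 3.11.15).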

Additional observations from a re-analysis of the deposited data

Results flagged for a closer look

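AT1G16310, of the cation efflux family, moved in opposite directions from middle to large buds of the sterile lines. Both large replicates lay below both middle replicates in J10 (67.1 and 53.4 against 154 and 151) and above them in J03 (355 and 288 against 178 and 273). The difference of the 2 steps, J10 minus J03, was -0.93 on the log2 scale, and limma's test of that difference did not pass (SE 0.50, adjusted p = 0.879). It was 1 of 16 one-gene members examined for such a pattern. A check for 1 outlying array in the members' median flagged none in the 12 groups. With so few arrays a group it can hardly flag any, so nothing is concluded from it. In sterile J10 middle buds, hybridisation 2 of replicate 1 had a log2 median of 7.86, against 8.48, 8.72 and 8.72 in the other 3 arrays. In fertile J03 middle buds, hybridisation 1 of replicate 1 had 8.54, against 9.16, 9.39 and 9.13. Both arrays were kept.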

How the results depend on the processing

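The members depend on the limits of the rule and on the scale. There were 76 with an offset of 50 (65 of them shared), 39 with an offset of 300 (39 shared), 63 after quantile normalization, 72 with the first hybridisations alone (56 shared), 46 at a signal of 1000, 23 at a difference of 1.5 and 12 at 2. A floor of 500 in each line, added after seeing the data, left 60. Leaving out 1 fertile replicate gave 49 to 81. The median sterile minus fertile difference in J03 large buds moved from -1.84 to -1.47 with an offset of 300. Without 1 replicate it spanned -1.92 to -1.73 in J03 and -1.89 to -1.44 in J10, and the median sterile step from middle to large buds spanned 0.21 to 0.28 and -0.06 to 0.17.

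The counts over all tested probe sets follow in the order J10 large minus middle, large minus small and middle minus small, J03 large minus middle and large minus small, the line difference of the step, and large J10 against J03. They were 10, 125, 77, 66, 272, 2 and 372. With the first hybridisations alone they were 5, 65, 39, 43, 160, 1 and 211, and with the replicate as a random block over all arrays 21, 254, 145, 116, 431, 10 and 587. Sterile groups alone gave 4 for the first, 49 for the third and 0 for the line difference, an offset of 300 gave 5 for the line difference, and the ratio covariate gave 64 for the last. Without 1 replicate these ran from 0 to 12, 45 to 83, 24 to 145, 8 to 103, 106 to 163, 0 to 19 and 117 to 240, and J03 middle minus small (281) from 102 to 158. The cause was not tested, beyond fewer arrays where replicates or hybridisations were left out.

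Members called higher in the J03 step from middle to large buds numbered 1, and 2 with sterile groups alone, the random block or the covariate, and 0 with the first hybridisations. In J03 middle minus small there were 2 in place of 5 with the first hybridisations, and in J10 middle minus small 1 in place of 2 without the filter. Members called lower in sterile J10 than J03 large buds fell from 6 to 1 with the covariate. Without 1 replicate the called members numbered 0 to 2 (J10 large minus small), 0 to 1 (J10 middle minus small), 0 to 0 (J03 large minus middle), 6 to 8 (J03 large minus small), 2 to 2 (J03 middle minus small) and 3 to 4 (lower in J10 than J03), and 0 in the other comparisons. Of 741 values of single members under alternatives, 0 of the called differences changed sign, 65 lost the call and 36 differences that were not called moved by at least 1 SE. By sign alone, 43 values had the other sign, all from 21 differences of at most 0.48 that were called under no alternative.

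Deviations of same-numbered replicates correlated above 0.1 in 14 of 15 group pairs of J10 (0.09 to 0.29), so they tended to deviate together there, and in 0 of 15 of J03 (-0.04 to 0.08). As not every pair passed 0.1 and no label ties the numbers to shared plants or days, the numbers were not taken as pairs. With a replicate block within each line the 7 counts were 19, 282, 130, 103, 443, 5 and 630, and no member lost a call. With 2 replicates a group, dim members (SE up to 0.62) are limited most.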
